A study of Rattus norvegicus with 24 samples.

Results

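In INS-1 cells, a beta cell model derived from a rat insulinoma, 97 genes were found that were lower after 6 h of both GLP-1 and BMS-21 but near their Control level after 1 h. They were chosen by their measured values out of 26404 in the deposited tables. A gene belonged to the set if log2 of the mean normalised count with the agent plus 1 over that of Control plus 1 was -0.7 or below for both agents at 6 h and within 0.3 of 0 for both at 1 h, and if the 8 libraries of each 6 h table averaged 20 or more. Of 11837 genes that reached this mean in both 6 h tables, 139 (1.17%) lay at -0.7 or below with both agents, and 101 of these were also within the band at 1 h. Symbols that begin with Adcy, Rgs, Cacn, Kcn, Scn, Klf, Pde, Dusp or Tgfb were left out, as were Acaca, Hmgcs1, Fdft1 and Slc2a2. This removed Adcy1, Kcnab3, Rgs22 and Scn7a. In the files 4 of the 97 genes have an identifier only, and all 92 that matched an entry of RefSeq are protein-coding.

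The cells received 100 nM GLP-1, 1 µM BMS-21 or the DMSO vehicle (Control), and RNA was taken 1 h or 6 h later from 4 replicates of each of the 6 groups. All groups, Control included, first spent 90 min at 3 mM glucose and were given medium with 11 mM glucose at the start of treatment, so time in these data also means time at the higher glucose. GLP-1 is a gut hormone, and BMS-21 is a compound that the labels give by code name alone. Whether replicates were separate cultures is not stated, and the spread that the p-values rest on may therefore be technical.

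The receptor of GLP-1 couples to Gs, and in beta cells its activation raises cyclic AMP, which acts through protein kinase A and Epac to strengthen glucose-stimulated insulin secretion. Transcription factors of the CREB family carry the early transcriptional response to cyclic AMP. Beta cells also share many genes with neurons, among them those for exocytosis, ion handling and neurite proteins, and they turn on genes of glycolysis and lipid synthesis through the glucose sensor ChREBP when glucose rises.

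Each library held 10667350 to 13148970 reads assigned to genes, and 3 reads, taken as the floor of detection for counting error only, stood for 0.228 to 0.281 CPM. Levels across all 6 groups are given as CPM, that is reads of a gene scaled to library totals that TMM had adjusted over the 24 libraries. They are not divided by transcript length and are compared only within a gene. Of 12 beta cell markers 11 were matched, and these had reads in every library, among them Ins1, Ins2, Pdx1, Mafa and Nkx6-1. Ucn3, a marker of mature beta cells, was low and stayed at or below 0.810 CPM. The 12 markers of other cells summed to 9.27 to 12.7 CPM in the Control libraries and 12.6 to 18.5 in those of the agents. The highest of them was the glucagon gene Gcg (median 8.66). Sox9 (1.139 to 5.575 CPM) and Ghrl (0.974 to 2.389) also had reads in every library, above the floor. Amy2a3 was at 0 in all 24 libraries, and Sst, Ppy, Krt19 and Ptprc were at 0 in at least 19. Cpa1, Prss1, Col1a1 and Pecam1 stayed at or below 0.490. A part of such cells in the results was not tested.

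Among the members with the lowest values at 6 h, the promoter table of RefSeq (build GRCr8, 250 bases before to 50 after the start) had an entry for 5 of the first 10. The promoters of Lrrc39 and Mgll are shown because they held 1 of the 8 motifs searched, the E-box CACGTG, which is in capitals. An E-box is the core letter pattern for basic helix-loop-helix factors such as the clock proteins.
Lrrc39, chr2:207200789-207201088, + strand: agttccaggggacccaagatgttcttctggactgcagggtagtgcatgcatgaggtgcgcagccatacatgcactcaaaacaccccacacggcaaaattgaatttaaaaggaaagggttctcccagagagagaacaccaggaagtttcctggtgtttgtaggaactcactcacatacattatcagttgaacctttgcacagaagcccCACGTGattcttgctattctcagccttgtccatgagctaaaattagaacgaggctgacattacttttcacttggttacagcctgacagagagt
Mgll, chr4:122749186-122749485, + strand: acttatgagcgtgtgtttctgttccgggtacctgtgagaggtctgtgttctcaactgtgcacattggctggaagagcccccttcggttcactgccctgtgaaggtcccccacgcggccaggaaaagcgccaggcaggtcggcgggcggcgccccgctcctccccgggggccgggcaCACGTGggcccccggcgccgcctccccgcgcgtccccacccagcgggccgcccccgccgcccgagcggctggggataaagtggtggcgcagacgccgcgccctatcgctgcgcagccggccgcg

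Only 69 of the 97 members had a promoter entry, under the 80% needed for a check over the set, so that a comparison of the members' promoters with others is void and the counts here are a description of those 69. The E-box was in 7 of 69 (10.1%) and in 9.75% of the promoters of the same length of 8513 genes with a mean of at least 20. It lay in the promoters of Lrrc39, Mgll, Rasgrp2, Micalcl, Hpgd, Nln and Bhlhe41. The promoter used for Micalcl is that of Mical2, the RefSeq gene it was matched to. The full cyclic AMP response element TGACGTCA was in 0 of 69 and in 3.40% (289) of the 8513, and its shortened form TGACG, which the full element contains, was in 12 of 69 (17.4%) and in 33.3%. Both strands were searched. These letters were read on build GRCr8, while the reads had been aligned to Rnor_5.0, and a match shows neither a bound factor nor a cause.

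At 6 h the members' log2 values against Control ran from -1.53 to -0.70 with GLP-1, with a median of -0.85, and from -1.68 to -0.70 with BMS-21, with a median of -0.94. At 1 h the medians were -0.02 with GLP-1 and -0.04 with BMS-21. These values chose the members and are a description, with no test. With GLP-1 21 of 97 members were at -1 or below, that is at or under 0.5 times the Control level, and with BMS-21 41 were. Of all 11837 genes with a mean of at least 20, 40 were at -1 or below with GLP-1 and 67 with BMS-21. In 95 of 97 every agent library was below every Control library in both 6 h tables, with Prodh (both agents) and Acer1 (GLP-1) as the exceptions. Of all genes with a mean of at least 20, 15.7% lay below Control in every GLP-1 library and 16.6% in every BMS-21 library, and nothing is read from the members' count because the rule used these contrasts. Both agents were compared with the same 4 Control libraries at 6 h, so the values of the agents are not independent of each other.

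The threshold cut through a continuous range. Just inside it were Limch1 (-0.70 with GLP-1 and -0.70 with BMS-21), Itpr2 (-0.70 and -0.84) and 2 genes without a symbol. Just outside were Neo1 (-0.70 and -0.73), Camk2n1 (-0.70 and -0.76), Plk5 (-0.70 and -0.83) and Slc52a3 (-0.69 and -0.89). At 1 h the band kept Cdk5r1 (-0.25 with GLP-1 and -0.29 with BMS-21) and Adck3 (-0.28 and -0.21). It left out Slc2a4 (-0.20 and -0.30) and Ptpre (-0.11 and -0.31). A member within the band could still lie apart from Control at 1 h. Cdk5r1 was at 50.4 to 56.0 CPM with GLP-1 and 47.4 to 56.6 with BMS-21, below Control (59.4 to 66.6). With BMS-21 at 1 h Pklr (195 to 231) and Plcxd3 (114 to 120) were also below Control (235 to 272 and 127 to 130).

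The 10 members with the lowest mean of their 6 h values were Lrrc39, Prex2, Gas7, Mgll, Arpp21, Adamts16, Cpne5, Hspa12a, Tgm2 and Cyp4f1. Lrrc39, a leucine-rich repeat protein best known from the sarcomere of muscle, stood at 20.4, 21.4, 20.8 and 21.0 CPM in Control at 6 h. It was at 8.01, 6.86, 6.57 and 7.18 with GLP-1 and at 5.80, 6.76, 6.48 and 6.93 with BMS-21. All 8 agent libraries were thus far below the 4 Control libraries, 2.89-fold lower on average with GLP-1 and 3.19-fold lower with BMS-21. At 1 h the 12 libraries of the 3 groups lay between 33.8 and 44.1 and overlapped.

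Prex2, which activates the GTPase Rac downstream of phosphoinositide 3-kinase and of G protein beta-gamma subunits, had 11.0, 11.3, 10.8 and 11.4 CPM in Control at 6 h. With GLP-1 it had 4.46, 3.76, 3.24 and 3.77, and with BMS-21 3.31, 3.88, 4.15 and 3.98. Both agents gave a mean 2.87-fold below Control, and their libraries overlapped with each other but not with Control.

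Mgll encodes monoacylglycerol lipase, which splits monoacylglycerols, among them the endocannabinoid 2-arachidonoylglycerol. It was at 9.60, 9.11, 7.97 and 10.6 CPM in Control at 6 h, at 3.96, 4.10, 3.01 and 3.07 with GLP-1 and at 4.39, 3.34, 2.57 and 2.87 with BMS-21. The lowest Control library was above the highest agent library, and the folds were 2.60 and 2.79. Tgm2, the calcium-dependent crosslinking enzyme transglutaminase 2, differed between replicates. With BMS-21 at 6 h it was at 16.0 and 15.3 in replicates 1 and 2 but at 7.64 and 10.9 in replicates 3 and 4. Control replicates 1 and 2 (37.4 and 39.8) were likewise above replicates 3 and 4 (31.7 and 33.6).

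**Figure D1:**
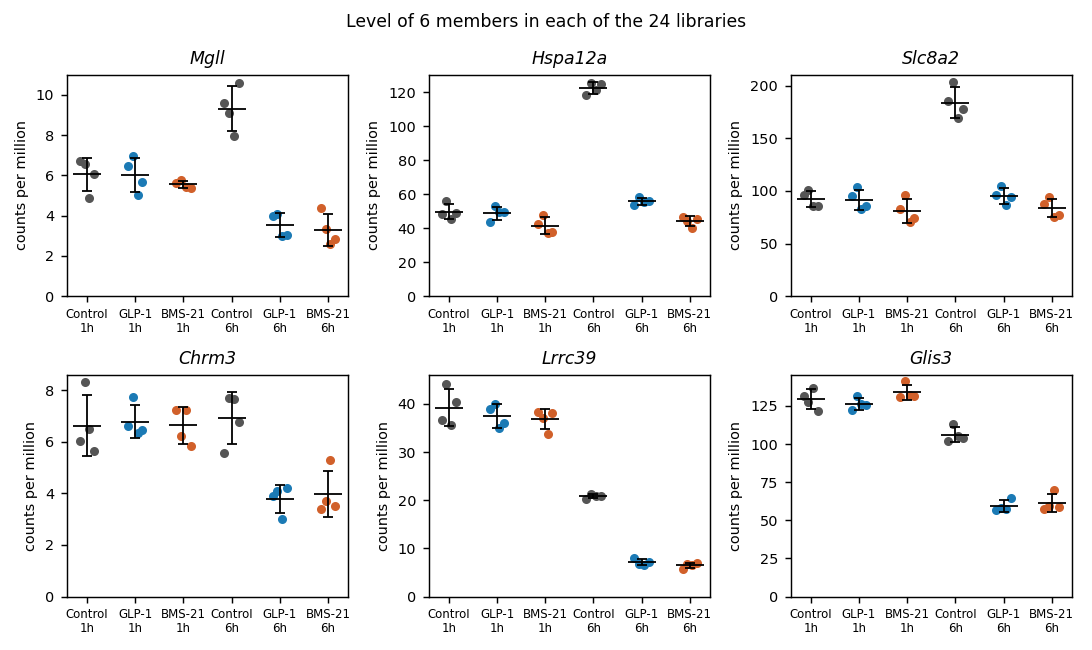
CPM (linear axis from 0) of 6 members in each of the 24 libraries, 4 points a group, with bars for the mean and SD. At 1 h the 3 groups overlap for each of the 6 genes, and at 6 h both agents lie below Control, whether Control had risen from 1 h (Mgll, Hspa12a, Slc8a2), had not passed the test (Chrm3) or had fallen (Lrrc39, Glis3).

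A difference from Control at 6 h can arise because Control rose, because the agent fell, or both, and the time course of each arm separates these. Each arm at 6 h was compared with itself at 1 h by edgeR's quasi-likelihood test on the recovered reads of all 24 libraries, with an adjusted p under 0.05. The libraries are the ones the rule used, and the rule fixes that an agent's change over time is below that of Control. It does not set how the gap divides between the arms, but it favours rises in Control and falls with an agent. The counts of members are therefore a description, and the shares of all genes beside them do not test them.

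In Control 51 of the 97 members rose from 1 h to 6 h (52.6%) and 20 fell (20.6%), with a median log2 change of 0.32. Of 13114 genes tested 26.1% rose and 27.1% fell in Control, with a median of -0.01. With GLP-1 4 members rose and 67 fell, against a background of 29.2% rising and 30.2% falling, and their median change was -0.61. With BMS-21 2 rose and 68 fell, against 30.2% and 31.4%, with a median of -0.67. In all, 63 members fell over time with both agents.

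Of the 51 members that rose in Control, 20 fell with both agents, 9 passed the threshold with 1 agent, 20 passed with neither, and 2 (Mmp17 and Adarb1) rose with both. For the 20 that passed with neither, the gap at 6 h lay in a rise of Control that the test did not find with the agents, though a missed threshold does not show that they stood still. Of the 26 members that did not pass in Control, 23 fell with both agents, 2 passed with 1 agent, and 1 (Pth1r) passed with neither. The 20 members that fell in Control had to change further in the same direction with both agents, by the rule, and their median changes were -0.47 in Control, -1.37 with GLP-1 and -1.48 with BMS-21.

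**Figure D2:**
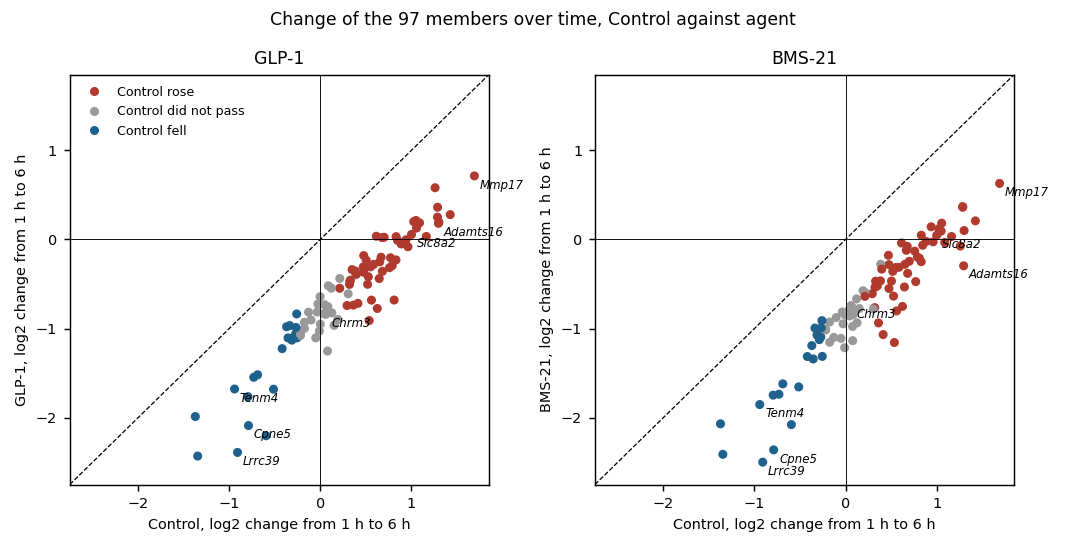
Each point is 1 of the 97 members, with its log2 change from 1 h to 6 h in Control on the horizontal axis and with the agent on the vertical axis, coloured by the edgeR call in Control. The rule places every point below the dashed line of equal change, and the points spread along that line from members that fell in every arm (Lrrc39, Cpne5) to Mmp17, which rose in every arm by a smaller amount with the agents.

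The largest rises in Control were those of Mmp17, Lgi3, Hspa12a, Adamts16 and Adarb1. Mmp17, a membrane-anchored matrix metalloproteinase, was at 15.8, 16.6, 11.8 and 10.3 CPM in Control at 1 h and at 49.1, 49.6, 38.2 and 39.3 at 6 h. With GLP-1 it reached 23.2, 24.8, 18.4 and 19.9, and with BMS-21 22.8, 22.9, 13.6 and 17.1. It therefore rose in all 3 arms, by log2 1.69 ± 0.15 (SE) in Control, 0.71 ± 0.17 with GLP-1 and 0.63 ± 0.18 with BMS-21 (edgeR adjusted p 6.58e-11, 0.000611 and 0.00272), in every replicate.

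Hspa12a, a distant relative of the 70-kilodalton heat shock proteins, climbed in Control from 48.5, 56.0, 45.7 and 48.7 CPM at 1 h to 118, 126, 121 and 125 at 6 h. With GLP-1 it went from 43.7, 52.8, 49.3 and 49.5 to 53.5, 58.5, 55.6 and 55.7, and with BMS-21 from 42.4, 47.9, 37.1 and 38.0 to 46.8, 44.1, 40.4 and 45.5. The Control libraries at 6 h stood apart from all 20 others. The rise in Control was log2 1.30 ± 0.06 (edgeR adjusted p 9.33e-18), and that with GLP-1, 0.19 ± 0.07, also passed (adjusted p 0.0127), while the value with BMS-21 was 0.10 ± 0.07 (adjusted p 0.219).

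The largest falls in Control were those of 2 genes without a symbol (ENSRNOG00000033865 and ENSRNOG00000050714), Tenm4, Lrrc39 and Lppr1. Tenm4, a teneurin that spans the membrane and guides neurite contacts, went from 40.2, 34.8, 52.7 and 51.0 CPM in Control at 1 h to 24.3, 21.5, 23.1 and 24.0 at 6 h. At 6 h it was at 11.2, 11.9, 16.7 and 14.4 with GLP-1 and at 11.0, 12.8, 16.0 and 13.2 with BMS-21. Replicates 3 and 4 were above replicates 1 and 2 in every arm at 1 h, yet the agents were below Control in every replicate at 6 h. Lrrc39 fell by log2 -0.91 ± 0.07 in Control, -2.39 ± 0.08 with GLP-1 and -2.50 ± 0.08 with BMS-21.

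By role, 71 members could be placed in 8 groups, assigned from general knowledge after the members were known, and the other 26 were left in none. The largest group, 16 genes of the synapse and neurite, had median values at 6 h of -0.96 with GLP-1 and -1.0 with BMS-21. Over time 10 of these rose and 3 fell in Control, while 12 fell with each agent. Of all 97 members 52.6% rose and 20.6% fell in Control, and 69.1% fell with GLP-1 and 70.1% with BMS-21. Over all genes 26.1% rose and 27.1% fell in Control, and 30.2% and 31.4% fell with the agents. The counts over time in this and the other roles are therefore not read as traits of a role. Gria2 encodes the AMPA receptor subunit that keeps the channel closed to calcium when its transcript is edited, and Adarb1 (ADAR2) is the deaminase that makes this edit. Gria2 was at 16.1, 18.6, 18.1 and 21.9 CPM in Control at 6 h, at 6.61, 7.28, 8.78 and 8.67 with GLP-1 and at 8.87, 8.51, 9.22 and 7.88 with BMS-21. The agent libraries did not overlap Control, and Gria2 had already fallen in Control from 1 h by log2 -0.51 ± 0.09 (edgeR adjusted p 6.38e-06).

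Adarb1 took the opposite course in time. It went from 74.6, 76.8, 65.9 and 65.8 CPM in Control at 1 h to 172, 185, 163 and 170 at 6 h. With GLP-1 it was at 91.3, 105, 91.3 and 94.4 at 6 h and with BMS-21 at 87.0, 92.2, 75.2 and 85.4. Thus both agents left it above its 1 h level, with a rise of 0.36 ± 0.07 for each (edgeR adjusted p 4.2e-05 and 5.41e-05), but below Control. Editing of transcripts was not measured here.

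Of the other synaptic members, Gsg1l, an auxiliary protein of AMPA receptors, was at -1.22 with GLP-1 and -1.09 with BMS-21 at 6 h. Rims1, a scaffold of the vesicle release site, was at -0.96 and -0.81, and Syt12, a member of the synaptotagmin family, at -0.76 and -0.82. The secreted leucine-rich proteins Lgi2 and Lgi3 were at -0.89 and -0.98, and at -1.16 and -1.18. Among neurite genes were Dpysl3, which binds tubulin and actin in growth cones (-1.25 and -1.26), Gas7 (-1.36 and -1.61), and Cdk5r1, the p35 activator of the kinase Cdk5 (-1.04 and -1.15). Bai1 and Bai3, adhesion-type G protein-coupled receptors now named Adgrb1 and Adgrb3, were at -0.79 and -0.89, and at -0.80 and -0.88. These values chose the genes and carry no test.

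Calcium and phosphoinositide signalling had 13 members, with medians of -0.81 with GLP-1 and -1.03 with BMS-21. Chrm3, the muscarinic acetylcholine receptor through which vagal input raises insulin secretion, couples through Gq to phospholipase C-beta, which makes the ligand of inositol trisphosphate receptors. Along that route the set held Chrm3 (-0.85 and -0.79), the phospholipase Plcb1 (-0.75 and -0.83) and the inositol trisphosphate receptor Itpr2 (-0.70 and -0.84). It also held Car8, which binds the type 1 inositol trisphosphate receptor and lowers its affinity for its ligand (-0.75 and -0.73).

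Chrm3 was at 5.56, 7.70, 7.65 and 6.77 CPM in Control at 6 h, at 3.88, 4.10, 3.01 and 4.21 with GLP-1 and at 3.40, 3.72, 5.31 and 3.5 with BMS-21. The Control and agent libraries did not overlap, though BMS-21 replicate 3 came close to the lowest Control library. Over time Chrm3 gave 0.06 ± 0.13 in Control (edgeR adjusted p 0.737) and fell by log2 -0.84 ± 0.15 with GLP-1 and -0.74 ± 0.15 with BMS-21. Plcb1 was at 24.2, 24.8, 25 and 24.3 in Control at 6 h, at 14.7, 13.8, 13.9 and 15.7 with GLP-1 and at 15.4, 13.7, 13.9 and 12.2 with BMS-21, and the narrow Control range was well above both agents.

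Calcium transport out of the cytosol was represented by Slc8a2, a sodium/calcium exchanger of the plasma membrane (-0.94 and -1.14), and Atp2c2, a calcium pump of the secretory pathway (-0.74 and -0.94). Slc8a2 rose in Control from 96.1, 100, 85.7 and 85.2 CPM at 1 h to 185, 204, 169 and 177 at 6 h. It stood at 96.2, 105, 86.4 and 94.2 with GLP-1 and at 87.4, 94.1, 75.5 and 77.2 with BMS-21 at 6 h. The change over time was log2 1.00 ± 0.08 in Control (edgeR adjusted p 2.67e-12) and 0.06 ± 0.08 and 0.05 ± 0.08 with the agents (adjusted p 0.583 and 0.647). Phkg1, the catalytic subunit of phosphorylase kinase, which calcium activates, was at -1.0 and -1.05 at 6 h. Rasgrp2, a calcium- and diacylglycerol-regulated exchange factor for Rap, was at -0.76 and -1.10.

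**Figure D3:**
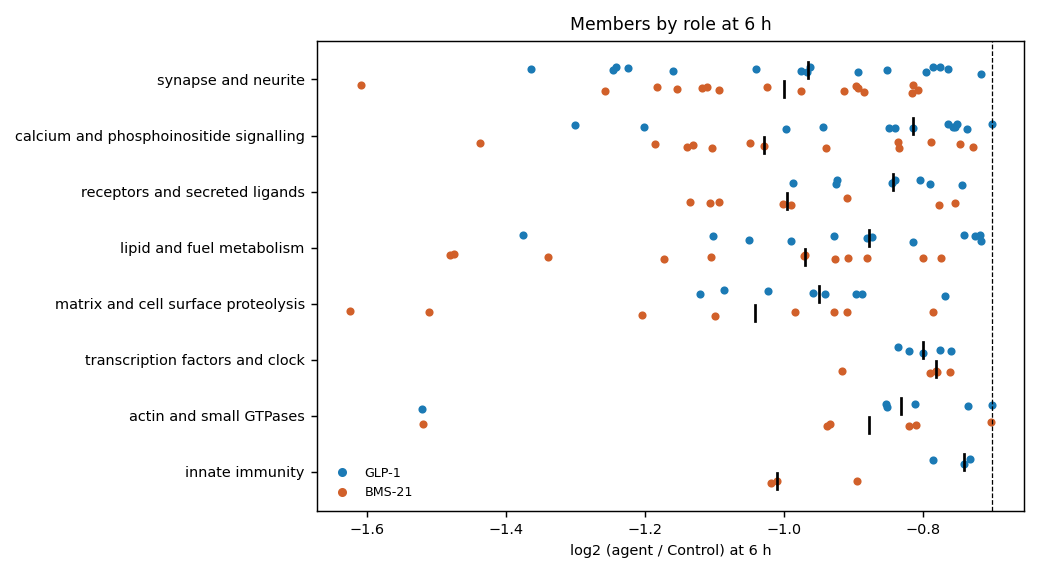
Log2 of agent over Control at 6 h for the 71 members with a role, 1 point for each gene and agent, with a bar at the group's median and a dashed line at the rule's limit of -0.7. No point lies right of the line because the rule set it there; the lowest values belong to Gas7, Adamts16, Prex2 and Tgm2, and the group of transcription factors spans the narrowest range among groups of 5 or more genes.

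Receptors and secreted ligands gave 8 members. Ret, the receptor tyrosine kinase of the GDNF family of ligands, and Nrtn, which encodes neurturin, 1 of those ligands, were both in the set. Ret was at 27, 27.9, 22.1 and 23.2 CPM in Control at 6 h, at 13.1, 16.7, 12.4 and 13.3 with GLP-1 and at 16.3, 13.8, 9.22 and 10.7 with BMS-21. Nrtn was at 15.6, 15.3, 14.4 and 17.6 in Control at 6 h, at 8.43, 8.45, 7.75 and 10.3 with GLP-1 and at 7.29, 10.0, 7.06 and 9.08 with BMS-21. For both the highest agent library was below the lowest Control library.

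Over time Ret fell by log2 -0.26 ± 0.11 in Control (edgeR adjusted p 0.0412), by -1.10 ± 0.12 with GLP-1 and by -1.31 ± 0.12 with BMS-21. Nrtn fell by -0.27 ± 0.10 (adjusted p 0.0228), -1.06 ± 0.11 and -1.09 ± 0.11 in the same arms. The other receptors included Gpr176, an orphan G protein-coupled receptor known from the circadian clock (-0.93 and -1.09 at 6 h), and Pth1r, the receptor of parathyroid hormone, which like the GLP-1 receptor couples to Gs (-0.80 and -0.78). Kremen1, which binds Dickkopf proteins and dampens Wnt signalling, was at -0.92 and -0.75. The cytokine Il15 was at -0.74 and -1.11.

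Lipid and fuel metabolism held 12 members, 9 of which rose in Control and none of which fell there. With GLP-1 6 fell and with BMS-21 7. Of all 97 members 52.6% rose and 20.6% fell in Control, and 69.1% fell with GLP-1 and 70.1% with BMS-21. Pklr, the pyruvate kinase of liver and beta cells and a classic ChREBP target, was the member with the most reads. It rose in Control from 265, 272, 235 and 242 CPM at 1 h to 406, 404, 367 and 374 at 6 h, by log2 0.61 ± 0.06 (edgeR adjusted p 5.54e-10). At 6 h it was at 247, 250, 212 and 229 with GLP-1 and at 219, 216, 184 and 209 with BMS-21, all below Control, and close to the 1 h libraries of the same agents, with changes over time of 0.04 ± 0.06 and -0.04 ± 0.06 (adjusted p 0.648 and 0.603).

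Several members act on lipid mediators. Beside Mgll these were Hpgd, which inactivates prostaglandins (-0.72 with GLP-1 and -0.93 with BMS-21 at 6 h), and Cyp4f1, a fatty acid omega-hydroxylase (-1.10 and -1.48). Sphingolipids were represented by Acer1, an alkaline ceramidase (-0.87 and -1.34), and Spns2, the exporter of sphingosine 1-phosphate (-0.72 and -0.97). Ppap2b, now named Plpp3, dephosphorylates lysophosphatidic acid and related lipids and was at -0.93 and -1.17.

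Matrix and cell surface proteolysis gave 8 members, among them Adamts16, a secreted metalloproteinase, at 4.12, 4.72, 3.62 and 3.83 CPM in Control at 6 h. It was at 2.23, 1.42, 1.9 and 1.75 with GLP-1 and at 1.16, 1.06, 1.58 and 1.27 with BMS-21, and in Control it had risen from 1.39, 1.87, 1.70 and 1.65 at 1 h. Fbn2, which encodes the microfibril protein fibrillin 2, was at -0.77 and -1.10 at 6 h, and Col9a1, a chain of type IX collagen, at -0.94 and -0.93.

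Transcription factors and clock genes gave 5 members, all of which fell over time with both agents: Glis1, Glis3, Bhlhe41, Per3 and Zfp521. Most of the 97 members fell too, 69.1% with GLP-1 and 70.1% with BMS-21. Glis3, a zinc finger factor needed for beta cell formation and insulin transcription, was at 102, 113, 105 and 104 CPM in Control at 6 h. With GLP-1 it was at 56.5, 58.4, 57.2 and 64.9 and with BMS-21 at 57.6, 59.1, 70.1 and 58.9, with no overlap. It fell over time by log2 -0.29 ± 0.05 in Control (edgeR adjusted p 9.81e-06), -1.09 ± 0.05 with GLP-1 and -1.12 ± 0.05 with BMS-21. Of the clock genes, the repressor Bhlhe41 (Dec2) was at -0.76 and -0.76 at 6 h and had fallen in Control, while Per3 was at -0.80 and -0.78 and had risen in Control by log2 0.40 ± 0.10 (adjusted p 0.0019).

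Of the 6 genes of the actin cytoskeleton and small GTPases, Prex2 was far below the rest, which ran from Limch1 at -0.70 to Plekha7 (-0.85 and -0.81) with GLP-1 and Rasgef1c (-0.81 and -0.94) with BMS-21. All 6 fell over time with GLP-1 and 5 with BMS-21, beside 69.1% and 70.1% of all 97 members. The innate immunity genes were Pycard, the inflammasome adaptor ASC (-0.78 and -1.02), Oas1f (-0.74 and -1.01) and Ubd (-0.73 and -0.90). Oas1f belongs to a family of close paralogs, so that its reads may be shared with other copies. Strand is not kept by this kit, and reads of a transcript on the opposite strand would count toward the member they overlap.

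BMS-21 and GLP-1 were compared directly at 6 h. The rule did not use this contrast, but it used the same libraries and held both agents to the same limit. The members' counts here are therefore not independent of how the members were chosen. The test was limma on log2 of the normalised count plus 1, over the 12629 genes with a mean of at least 10. Of the 97 members 1 was lower with BMS-21 than with GLP-1 (Hspa12a) and 0 were higher, and in all genes tested 0.00792% were lower and 0.00792% higher. At an unadjusted p under 0.05, 16 members were lower and 0 higher, and of the 12629 genes 436 were lower and 364 higher. The values of 66 members were below 0 and of 31 above, with a median of -0.09 for the members and 0.00 for all genes tested.

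Hspa12a differed by log2 -0.34 ± 0.06 (limma adjusted p 0.038), and its 4 BMS-21 libraries (40.4 to 46.8 CPM) were all below its 4 GLP-1 libraries (53.5 to 58.5). Without any 1 of the 8 libraries the difference was -0.37 to -0.30 and its limma adjusted p 0.0613 to 0.353. Within replicates 1 and 2 it was -0.30 (adjusted p 0.0196), and within replicates 3 and 4 -0.38 (adjusted p 0.0269). The quasi-likelihood test of edgeR on the recovered reads called no member (adjusted p 0.0663 for Hspa12a) and 0 genes in all, with 362 genes higher and 425 lower at an unadjusted p under 0.05.

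Same-numbered libraries correlated after removal of group means, though other pairings were not compared. With the replicate number as a block in limma, 0.95% of all genes tested were lower with BMS-21 and 0.768% higher. Of the members 12 were lower and 0 higher. By adjusted p these were Hspa12a, Sgtb, Pklr, Plcxd3, Fbn2, Spns2, Cyp4f1, Tgm2, Mtmr10 and Slc8a2, followed by Adarb1 and Hpgd. Sgtb encodes a co-chaperone of heat shock proteins, Spns2 the lipid exporter named above and Mtmr10 a protein of the myotubularin family. The largest of these differences were Tgm2 (-0.46 ± 0.08, blocked limma adjusted p 0.000495), Cyp4f1 (-0.39 ± 0.07) and Fbn2 (-0.34 ± 0.06). The smallest were Adarb1 (-0.17 ± 0.04, adjusted p 0.00544) and Pklr (-0.18 ± 0.03). Pklr was lower with BMS-21 than with GLP-1 at each of the 4 replicate numbers (219 against 247, 216 against 250, 184 against 212 and 209 against 229 CPM). The authors' deposited table gave an adjusted p for 18 of the 97 members and for 5883 genes. It called 3 of these members, Hspa12a, Sgtb and Plcxd3, and 19 genes in all, and the authors' deposited table has them with log2 of GLP-1 over BMS-21 of 0.24, 0.17 and 0.20. The doses of the agents differ in kind and amount, so a difference between them is a difference between these treatments.

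**Figure D4:**
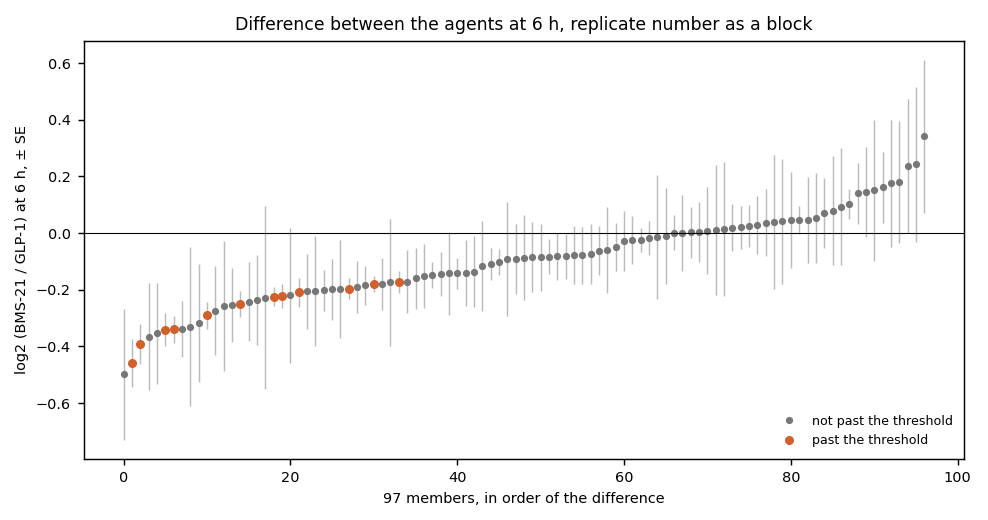
Log2 of BMS-21 over GLP-1 at 6 h for the 97 members in order of the difference, with bars for the SE of the blocked limma fit. The 12 members past the threshold (orange) are all below 0, and no member above 0 passed.

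Members spanned long stretches of the genome. In RefSeq's annotation of GRCr8 the span from start to end of the gene, introns included, had a median of 93.4 kb for the 92 members matched (94.8% of 97). For the 10270 of 11837 genes with a mean of at least 20 that were matched (86.8%), the median was 26.6 kb. Spans over 100 kb were found for 47.8% of members and 15.4% of these genes. The members that fell in Control as well had a median of 226 kb (18 with a value), those that did not pass in Control 90.1 kb (26) and those that rose 78.6 kb (48). The longest members were Tenm4 (2975 kb), Nckap5 (913 kb), Bai3 (728 kb) and Plcb1 (711 kb), and the shortest Pycard (1.3 kb), Ubd (2.0 kb) and Ccrl2 (2.6 kb).

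Long span was not particular to genes that went down. Genes raised at 6 h only, chosen by the mirror of the rule (111 genes, 98 with a span), had a median of 84.7 kb, and 45.9% of them exceeded 100 kb. Among genes over 300 kb, 4.49% lay at -0.7 or below with both agents and 4.79% at 0.7 or above, and among genes of 10 to 30 kb 0.694% and 1.36%. These shares are a description, with no test.

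**Figure D5:**
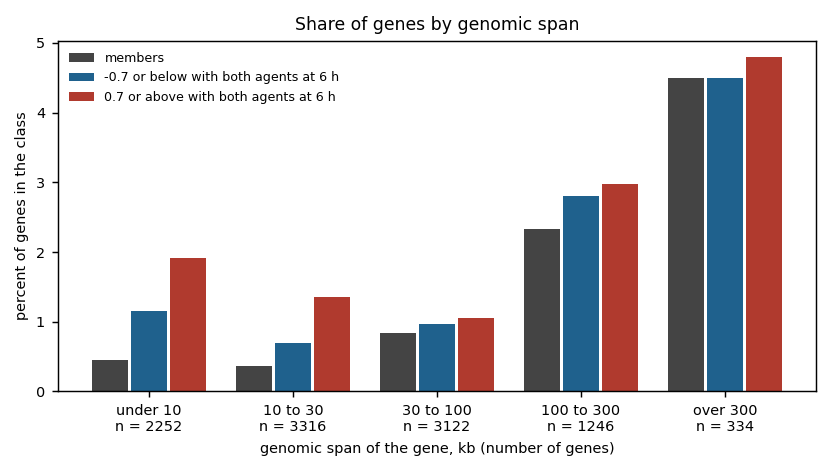
Percent of the genes in each class of genomic span (horizontal axis, kb) that are members (black), that lay at -0.7 or below with both agents at 6 h (blue) or at 0.7 or above (red), on a linear axis from 0. The shares of both directions are highest above 300 kb, where 15 of 334 genes are members.

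The members were set beside 8 lists of related pathways (204 genes, 182 matched), tested against Control at 6 h by limma over all genes. Over all genes these tests called 16.2% higher and 15.6% lower for GLP-1, and 16.8% and 16.8% with BMS-21. Scaled by library totals, the same tests called 1451 genes as higher and 2960 as lower for GLP-1 and 1510 and 3068 with BMS-21, in place of 2044 and 1967, and 2125 and 2128. The agents share the Control libraries, and the members among the list genes (Dpysl3, Mgll, Plcb1 and Pklr in the lists described here) were chosen low. The lists too were chosen with earlier results of these data known. Their counts and p-values are therefore a description and no independent evidence for a pathway.

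The list of glucose-responsive ChREBP targets had 0 of 14 tested genes higher with either agent, and 8 lower with GLP-1 and 10 with BMS-21. Its median was -0.27 and -0.31, where that of all genes was 0.00. Beside Pklr, the lowest adjusted p were those of Txnip, which binds thioredoxin and limits glucose uptake (-1.11 ± 0.04 with GLP-1 and -0.91 ± 0.04 with BMS-21, limma adjusted p 1.84e-13 and 2.23e-12), and its relative Arrdc4 (-0.67 ± 0.05 and -0.65 ± 0.05). Mlxipl, which encodes ChREBP, was at -0.45 ± 0.04 and -0.46 ± 0.04. Without Pklr 7 and 9 of 13 were lower.

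Axon guidance genes other than Dpysl3 gave 6 higher and 8 lower of 28 with GLP-1 and 5 and 9 with BMS-21, with Dpysl2 at -0.29 ± 0.03 and -0.35 ± 0.04.

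In the list of lipid hydrolysis and endocannabinoid genes, 6 were higher and 4 lower of 18 with GLP-1 apart from Mgll and Plcb1, and 7 and 4 with BMS-21. Dgki, a diacylglycerol kinase, fell by log2 -0.56 ± 0.07 and -0.71 ± 0.08. The 4 lists without a member moved in both directions with each agent. Notch genes gave 3 higher and 5 lower of 18 with GLP-1 and 4 and 4 with BMS-21, and Wnt genes gave 3 and 2, then 4 and 2, of 18. Adhesion and matrix genes gave 6 and 3, then 5 and 5, of 19, and YAP and TEAD targets 1 and 2, then 1 and 3, of 7.

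The libraries of replicates 1 and 2 stood apart from those of replicates 3 and 4 on the first principal component of the deviations from the group means, and the members' values were therefore also taken within each pair. These are the libraries that chose the members, so their agreement between the pairs is largely set by the rule and is a description. All 97 members were below 0 with both agents in both pairs. With GLP-1 88 were at -0.7 or below in replicates 1 and 2 and 83 in replicates 3 and 4, with medians of -0.85 and -0.86. With BMS-21 85 and 88 were, with medians of -0.94 and -0.99. The highest values were those of Acer1 (-0.45) and Oas1f (-0.52) with GLP-1 and of Itpr2 (-0.52) and Pth1r (-0.60) with BMS-21.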

How the data were processed

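Transcripts of INS-1 cells were profiled in 24 libraries (6 groups of 4, TruSeq RNA kit v2, per the labels' protocols). The submitters' processing notes name build Rnor_5.0 and TopHat2 2.0.12, Bowtie2 2.2.3.0, SAMtools 0.1.19.0, Subread, DESeq and DESeq2 1.6.3, without roles; the annotation version is not given in the sources used here. The authors deposited 6 tables of 26404 genes and 8 libraries whose values are a linear signal, normalised read counts divided by 1 size factor per library and table. The deposited log2 fold changes and adjusted p-values of the authors were used for GLP-1 against BMS-21 at 6 h only. All values (100%, tolerance 0.001) were whole multiples of a step, which gave back the reads, identical from both tables of a library.

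The members and the 8 lists were chosen with earlier results of these data known. The results of 1 list are not reported here. Members were found with a pseudocount of 1. Pairs of groups at 6 h were tested with limma 3.58.1 (trend, robust) on log2 of the normalised count plus 1, mean of at least 10. Time was tested with edgeR 4.0.16 (TMM, filterByExpr) in R 4.3.3 over all 24 libraries. Benjamini-Hochberg adjustment covered all genes, with a threshold of 0.05. On simulated data limma recovered 18% of genes changed 1.25-fold between the agents and 78% of those changed 1.5-fold, with 5.88% false calls. For Control over time edgeR recovered 36% and 78%, with 7.1% false calls. The simulation gave all genes the same dispersion and held no difference between replicates, unlike the real libraries. These shares therefore do not give the recovery in the real data.

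Same-numbered libraries correlated after removal of group means by 0.125 to 0.375 in all 24 pairs. Other pairings were not compared, and replicates 1 and 2 stood apart from replicates 3 and 4. The correlations therefore do not show that the replicate numbers pair the libraries. The labels give no shared day or batch, and the block by replicate number is an alternative only. Named members were the 10 lowest at 6 h, those nearest the threshold, the 5 with most reads, those called between the agents, the 5 largest rises and falls in Control, list members, and others within their role group; from each list up to 3 genes with the smallest adjusted p. Alternatives were other pseudocounts, filters and scalings, DESeq2 1.42.0, the replicate block, leaving out each library, and each pair of replicates.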

Additional observations from a re-analysis of the deposited data

Results flagged for a closer look

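In 21 members, among them all those with values given by library, each of the 6 groups was examined for a library far from the other 3, 126 sets in all. In 3 sets 1 library stood apart, 2 of them for Glis3. With BMS-21 at 1 h replicate 2 of Glis3 was at 141 CPM, while the other 3 libraries were between 131 and 132. With BMS-21 at 6 h replicate 3 of Glis3 was at 70.1, while the others were between 57.6 and 59.1. The same library, BMS-21 at 6 h replicate 3, was at 5.31 for Chrm3, while the others were between 3.40 and 3.72. Chance marks about 1 in 20 such sets. For both genes the high library at 6 h was still below the lowest Control library (102 for Glis3 and 5.56 for Chrm3).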

How the results depend on the processing

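The rule gave 75 to 142 genes under other pseudocounts, scalings and minimum means, with the replicate block and within pairs of replicates, and 86 to 109 without any 1 library, against 97. Scaling by library totals gave 122 genes, and no minimum mean gave 142. Set sizes hide changes of members. Replicates 1 and 2 alone gave 101 genes, of which 75 were among the 97. Replicates 3 and 4 alone gave 83, of which 62 were. Without any 1 library 81 to 96 of the 97 remained. The number of members lower with BMS-21 than with GLP-1 at 6 h depended on the processing. It was 0 with a mean of at least 50, 0 with edgeR, 3 with DESeq2, 12 with the replicate block, 2 in replicates 1 and 2, 6 in replicates 3 and 4, and 0 to 0 without any 1 library, against 1. None was higher in any of these. Members that rose with BMS-21 from 1 h to 6 h were 4 in replicates 3 and 4 and 2 to 4 without any 1 library, against 2. Hspa12a differed between the agents by -0.34 with a mean of at least 50 (limma adjusted p 0.0509), -0.34 with edgeR (adjusted p 0.0663) and -0.37 to -0.30 without any 1 library, in each case no longer past the threshold. The cause was not tested. The block by replicate number moved no other count of members or list genes by over 1.5 times. With it 52 members rose in Control and 22 fell, 71 fell with GLP-1 and 72 with BMS-21. Counting error weighs most on low members, such as Adamts16 with under 5 CPM in every library, and precision by level was not tested.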
